A study of Populus alba x Populus glandulosa with 18 samples.

Results

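The response of poplar stems to overexpression of *PagDET2* that is common to all 3 sampled tissues was measured as a single contrast, the mean of the DET2 minus 84K-1 differences in SAM, CZ and XY, on all 18 of the 18 RNA-seq libraries of the series. Of 25726 genes tested among 42950 in the deposited table, 4739 changed in this average at an adjusted p of at most 0.05 (edgeR quasi-likelihood test, Benjamini-Hochberg adjustment). The fitted change of 3146 of them had the same sign in every tissue. Only 221 genes were called in each of the 3 tissues with the same sign. The wild type, 84K-1, was the untreated hybrid poplar cultivar 84K (*Populus alba* × *P. glandulosa*), and DET2 was the same cultivar carrying an additional full-length *PagDET2* coding sequence behind the 35S promoter of cauliflower mosaic virus, a promoter active in nearly all plant cells rather than in a chosen cell type. All plants were 2 months old and grown in a greenhouse. Each genotype gave 3 libraries per tissue. The labels name SAM as shoot apical meristem, CZ as cambial zone and XY as xylem, while the study's methods describe the apex together with the first elongating internodes (primary stem), bark with differentiating phloem and cambium, and the surface tissue of the trunk wood. The libraries labelled DET2 do not say which transgenic line they came from. How the trees sampled were divided among genotypes and tissues is not clear, so the 3 tissues may have come from the same trees, and p-values measure the spread between these libraries. In bulk RNA, fewer cells of a type and less RNA per cell cannot be told apart.

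Brassinosteroids are plant steroid hormones that promote cell elongation, cell division and vascular differentiation. DET2 is a steroid 5-alpha-reductase that acts early in their synthesis. The hormone is perceived at the cell surface by the receptor kinase BRI1, which leads to inactivation of the kinase BIN2 and lets the transcription factor BZR1 act on its target genes, and excess hormone is removed by enzymes such as BAS1. In wood-forming stems the pathway is known for effects on the cambium and on xylem formation.

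The coding sequence carried by the construct was amplified with the cloning primer pair given here, because these oligonucleotides mark both ends of what the 35S promoter drives. Each is written from its 5′ end as supplied by the study, and the pair opens at the start codon on the sense strand and at the complement of the stop codon on the other strand.
DET2-SF: ATGGCCCTATTAGATCAGAGCCTCTT
DET2-SR: TCAACACAGAAAAGGGATCACTGCT

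The construct gene was the first check of the labels. *DET2* (Potri.016G110600) had in SAM 1298, 1285 and 1477 CPM in DET2 against 4.39, 5.34 and 7.44 CPM in 84K-1, in CZ 2171, 2279.8 and 2268 CPM in DET2 against 6.92, 5.98 and 6.26 CPM in 84K-1, and in XY 2737, 2808 and 2922 CPM in DET2 against 8.14, 8.89 and 5.52 CPM in 84K-1, where CPM is the gene's count scaled to its library's TMM-adjusted size. Every DET2 library lay far above every 84K-1 library in all 3 tissues. The mean log2 fold change was 8.30 ± 0.09 (SE, adjusted p = 4.6e-18), with 7.88 in SAM, 8.46 in CZ and 8.57 in XY. Its annotated paralog Potri.005G047800 had 0 counts in 18 of 18 libraries. The deposited counts do not separate transcripts of the construct from those of the resident gene.

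Library totals ranged between 7983668 and 12052409 counts. Known marker genes matched the labels for XY and CZ. The summed level of 37 xylem markers was 19511 to 20269.6 CPM in DET2 and 17975 to 18505 CPM in 84K-1 libraries of XY, against at most 1162 CPM in any library of the other tissues. Phloem and cambium markers were highest in CZ. Marker sums were taken over all matched genes, tested or not, as CPM of the library total without TMM. Shoot apex markers did not single out SAM, where their sum was 739 to 799 CPM in DET2 and 712 to 765 CPM in 84K-1, below the 1047 to 1155 CPM of DET2 and 1128 to 1174 CPM of 84K-1 in CZ, and *WUS*, *LFY* and the *CUC* genes averaged under 1 CPM there. Epidermis markers were highest in SAM, at 543 to 581 CPM in DET2 and 555 to 591 CPM in 84K-1, against at most 415 CPM in the other tissues. The shoot apex sum includes *ANT*, which is also a cambium marker. The *ANT* gene Potri.002G114800 averaged 167 CPM in DET2 and 169 CPM in 84K-1 libraries of CZ, against 59.9 and 55.7 CPM in SAM. *KNAT1* (Potri.002G113300) was higher in SAM, with 380 and 387 CPM against 285 and 302 CPM in CZ. *STM* (Potri.004G004700) was not, with 47.6 and 45.5 CPM against 70.5 and 63.2 CPM. Because the summed shoot apex markers did not single out this tissue, the name SAM is used for the label only. Genes annotated like those of the chloroplast and mitochondrial genomes (organelle-like genes) took 0.00796 to 0.00886% of counts in DET2 and 0.172 to 0.189% in 84K-1 libraries of XY, but 0.176 to 0.371% in DET2 and 0.0558 to 0.11% in 84K-1 libraries of CZ. None of the 81 tested organelle-like genes moved the same way in all tissues, although 48 were called lower in the average. In all 6 groups, replicates 1 and 2 differed by little more than counting noise: the median chi-square per gene was 0.504 to 0.558, where counting alone gives 0.455, against 1.004 to 1.349 for pairs that include replicate 3. The labels do not say which replicates came from separate plants, so the counts of the lists below are also given with replicates 1 and 2 of each group summed to a single library.

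The genes called in the average were many, and their changes were mostly small. In the average, 2356 genes were higher in DET2 (9.16% of those tested) and 2383 were lower (9.26%). Of these, 1649 were higher (6.41%) and 1497 lower (5.82%) with the same sign in SAM, CZ and XY, and these are called genes that moved the same way. The same sign describes the fitted values and needs no call in any single tissue, so a gene changed in 1 tissue can meet it. A gene given below with a mean ± SE moved the same way unless stated otherwise, and the mean is its averaged log2 fold change. The median log2 fold change was 0.31 (1.24-fold) for those higher, of which 125 reached 2-fold and 1310 stayed under 1.5-fold. It was -0.29 (1.22-fold) for those lower, of which 124 reached 2-fold and 1220 stayed under 1.5-fold. With values averaged over tissues for each genotype and replicate number, limma called 1307 genes higher and 1307 lower, against 2356 and 2383. That fit counts a tree once if same-numbered libraries shared it, which the labels do not say.

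The average also called genes that were called in no single tissue. Of the 1649 genes that were higher the same way, 532 were also called in the test of SAM, 506 in CZ and 933 in XY, and 266 were called in no single tissue. Of the 1497 that were lower, 427 were called in SAM, 514 in CZ and 735 in XY, and 339 in none. Exactly 1 tissue called 902 of those higher and 754 of those lower, and exactly 2 tissues called 374 and 290. Most genes that moved the same way were thus called in at most 1 tissue. Under the strictest reading, called in each of the 3 tissues with the same sign, 107 genes were higher (0.416%) and 114 lower (0.443%), with median changes of 1.51-fold and 1.38-fold. Complete separation of the 3 DET2 and the 3 84K-1 libraries in every tissue held for 289 genes in the higher direction (1.12%) and 284 in the lower direction (1.1%). The size of the effect differed between tissues for 5113 genes (19.9%), among them 368 and 284 of the genes that were higher and lower the same way.

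With replicates 1 and 2 summed, leaving 2 libraries per group, the genes that moved the same way numbered 848 higher (3.18%) and 734 lower (2.75%), and 32 and 25 were called in each tissue. Among the original genes, 822 of 1649 and 715 of 1497 were called again, and 0 were called in the opposite direction. List counts below are to be read against 6.41% higher and 5.82% lower of all genes. Summed list counts are to be read against 3.18% and 2.75%. The split between directions also depended on the scale. On the deposited FPKM values (log2 of FPKM plus 1, limma), 1417 genes were higher and 2034 lower the same way, against 1649 and 1497 on the counts.

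**Figure D1:**
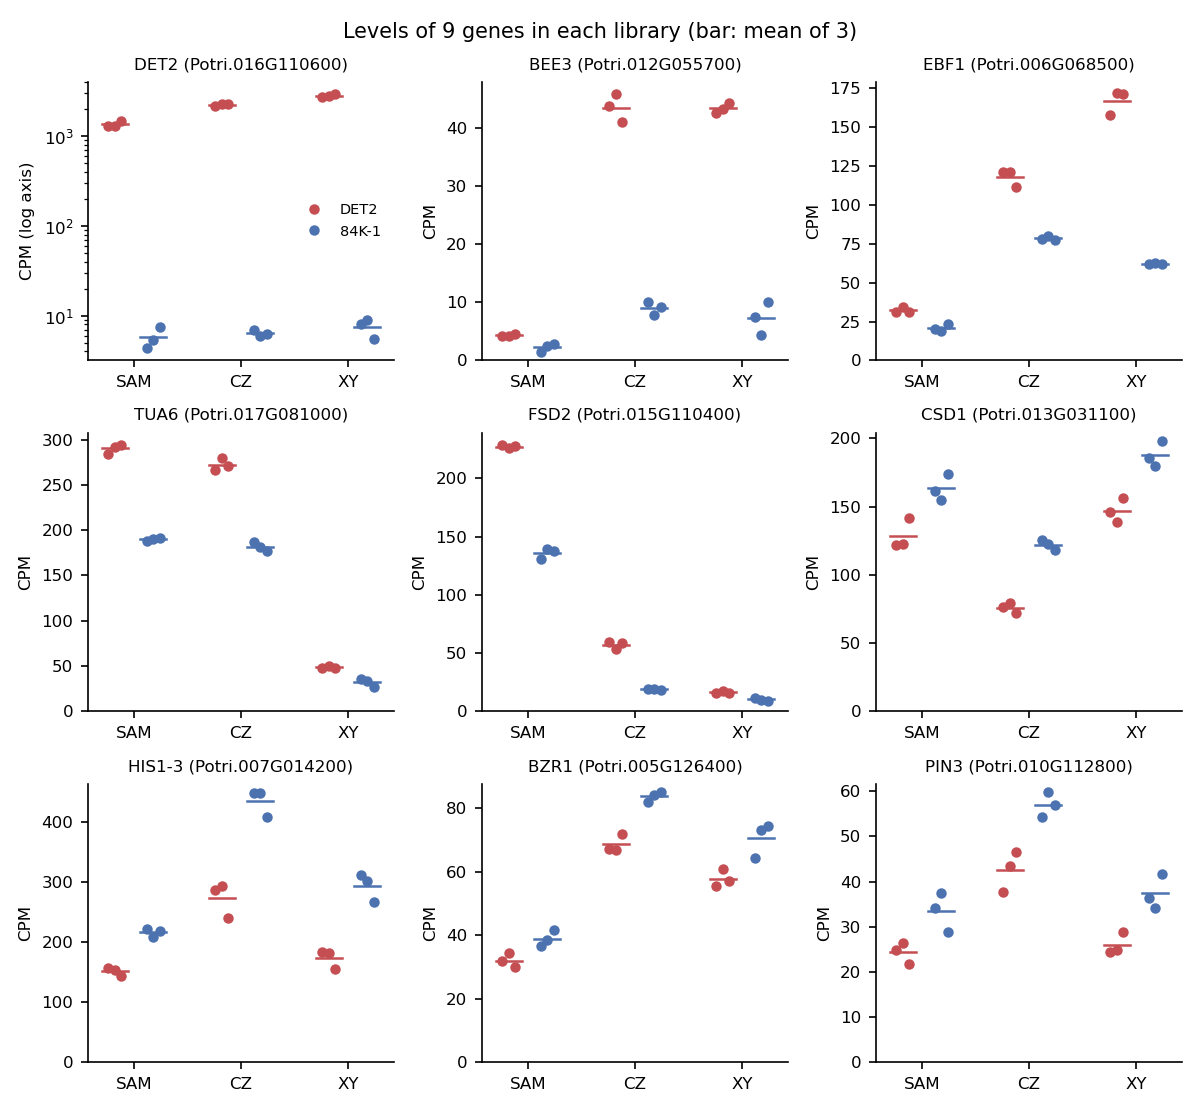
Level of 9 genes in each library, with CPM on the vertical axis (log axis for *DET2*), the tissues SAM, CZ and XY on the horizontal axis, DET2 left of 84K-1, 1 point per library and a bar for the mean of 3. *BEE3* was higher in DET2 in every tissue, and *BZR1* and *PIN3* were lower in every tissue, with no overlap between the genotypes.

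Within the brassinosteroid pathway, the shared changes outside *DET2* were small and lay mostly in the lower direction for receptors, kinases, BZR1 and inactivating enzymes, while *BEE3* was higher. Of the synthesis genes, 2 of 17 tested (11.8%) moved the same way higher and 1 (5.88%) lower, against 6.41% and 5.82% of all genes. *DET2* itself was one of those higher. The other was *DWF7* (Potri.017G116600), a sterol desaturase that acts upstream of DET2, with a mean log2 fold change of 0.38 ± 0.10 (SE, adjusted p = 0.011). It had in SAM 25.5, 24.2 and 35.9 CPM in DET2 against 20.6, 23.5 and 21.8 CPM in 84K-1, in CZ 9.61, 10.4 and 11.4 CPM in DET2 against 8.46, 7.36 and 7.65 CPM in 84K-1, and in XY 4.99, 7.59 and 6.32 CPM in DET2 against 6.71, 4.74 and 3.96 CPM in 84K-1. The groups overlapped only in XY. The gene that was lower, *ROT3* (Potri.007G018400), encodes a cytochrome P450 of a late synthesis step. Its call rests on CZ, where it had 0 counts in all DET2 libraries and at most 0.464 CPM in 84K-1 libraries. In SAM it had 63.3, 64.9 and 59.99 CPM in DET2 and 66.6, 64.8 and 65 CPM in 84K-1, and the call was lost without 84K-1 CZ replicate 3 (adjusted p = 0.16), so no shared change of *ROT3* can be read from these levels.

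Of 12 tested genes for brassinosteroid inactivation, 0 were higher and 3 (25%) lower the same way, against 6.41% and 5.82% of all genes. The list median was -0.27 in log2 fold change, and the same 0 and 3 were found with replicates 1 and 2 summed. All 3 are known inactivating enzymes: a pair of *BAS1* genes, cytochromes P450 that hydroxylate the active hormone, and *BEN1*, a reductase. *BAS1* (Potri.001G032800) had in SAM 76.1, 74.6 and 70.0 CPM in DET2 against 88.8, 85.2 and 96 CPM in 84K-1, in CZ 46.9, 50.3 and 48 CPM in DET2 against 63.9, 60.6 and 68.8 CPM in 84K-1, and in XY 40.1, 39.5 and 39 CPM in DET2 against 42.3, 42.4 and 41.6 CPM in 84K-1. All DET2 libraries were below all 84K-1 libraries in each tissue, by the narrowest margin in XY. Its mean log2 fold change was -0.26 ± 0.04 (SE, adjusted p = 2.5e-05), that of the other *BAS1* (Potri.003G192300) -0.36 ± 0.07, and that of *BEN1* (Potri.T168500) -0.28 ± 0.05. In the edgeR test of XY alone neither *BAS1* was called, at -0.09 for Potri.001G032800 (adjusted p = 0.43) and -0.12 for Potri.003G192300 (adjusted p = 0.63). The XY libraries of Potri.003G192300 overlapped between genotypes.

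Of 59 tested genes of brassinosteroid signalling and response, 4 (6.78%) were higher and 10 (16.9%) lower the same way, around a list median of -0.02. The higher share was near the 6.41% of all genes, while 5.82% of all genes were lower. With replicates 1 and 2 summed the counts were 3 and 5. The lower members spanned the pathway. Both *BRI1* receptor genes were lower, with mean log2 fold changes of -0.38 ± 0.09 for Potri.007G078100 and -0.32 ± 0.07 for Potri.005G086500. The related receptors *BRL2* (Potri.010G101100) and *BRL1* (Potri.011G169600) had -0.19 and -0.17. Of *BIN2*, the kinase that restrains the pathway, Potri.004G059000 had -0.19 ± 0.03 and Potri.011G068600 -0.21 ± 0.04. *BZR1* (Potri.005G126400) was called in each tissue. It had in SAM 31.8, 34.3 and 29.9 CPM in DET2 against 36.5, 38.4 and 41.6 CPM in 84K-1, in CZ 67.2, 66.9 and 71.9 CPM in DET2 against 82.1, 84.3 and 85 CPM in 84K-1, and in XY 55.6, 61 and 57 CPM in DET2 against 64.4, 73.1 and 74.4 CPM in 84K-1. Its DET2 libraries were the lower ones in every tissue. The mean log2 fold change of this *BZR1* was -0.28 ± 0.04 (SE, adjusted p = 2.5e-05), and the 3 tissues were nearly alike at -0.28 in SAM, -0.29 in CZ and -0.29 in XY. A second *BZR1* (Potri.002G133700) had -0.19 ± 0.07, and this call was lost in 10 of 18 fits that each left out 1 library (adjusted p up to 0.12). That of *BRL1* (Potri.011G169600) was lost in 12 of 18 fits that each left out 1 library (adjusted p up to 0.12).

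*BEE3* (Potri.012G055700), a basic helix-loop-helix factor known in Arabidopsis as an early brassinosteroid-induced gene, was higher in DET2 in every tissue. It had in SAM 4.17, 4.18 and 4.64 CPM in DET2 against 1.49, 2.4 and 2.88 CPM in 84K-1, in CZ 43.8, 45.9 and 41.1 CPM in DET2 against 10.01, 7.88 and 9.28 CPM in 84K-1, and in XY 42.7, 43.4 and 44.3 CPM in DET2 against 7.51, 4.45 and 10.1 CPM in 84K-1. The genotypes did not overlap in any tissue, and the fitted difference was lowest in SAM. The mean log2 fold change was 1.91 ± 0.11 (SE, adjusted p = 2.9e-12), with 0.93 in SAM, 2.27 in CZ and 2.54 in XY, and these 3 effects differed (adjusted p = 0.0012). Another *BEE3* (Potri.015G046300) was called in the average at 1.79 ± 0.48 but not with 1 sign, with -0.53 in SAM, 3.05 in CZ and 2.84 in XY. The last of the 3 tested *BEE3* genes, Potri.004G099400, expressed at a mean of 2.3 CPM, had 1.19 ± 0.20. The remaining higher members were *EXL5* (Potri.009G167800), of the EXORDIUM-like family, at 0.32 ± 0.05, and *BRH1* (Potri.014G087700), a RING-type brassinosteroid-responsive gene, at 0.25 ± 0.09. The call of *BRH1* was lost in 12 of 18 fits that each left out 1 library (adjusted p up to 0.12), and that of the *BEE3* gene Potri.015G046300 in 1, without DET2 CZ replicate 2 (adjusted p = 0.066).

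Among genes called in each tissue and expressed at a mean of at least 5 CPM, the greatest increase after *DET2* was that of Potri.003G063300, annotated as a kinase-related protein of the DUF1296 family. It had in SAM 172, 192 and 162 CPM in DET2 against 30.4, 32.7 and 29.4 CPM in 84K-1, in CZ 222, 214 and 272 CPM in DET2 against 41.7, 39.6 and 43.1 CPM in 84K-1, and in XY 259, 251 and 297 CPM in DET2 against 34.5, 47.4 and 38.3 CPM in 84K-1. The DET2 libraries were several-fold above the 84K-1 libraries in every tissue. The mean log2 fold change was 2.59 ± 0.06 (SE, adjusted p = 3.9e-17), with 2.51 in SAM, 2.51 in CZ and 2.75 in XY, and no difference between tissues was called. *AGO2* (Potri.015G117350), an Argonaute protein of RNA silencing, had in SAM 14.8, 15.3 and 15.8 CPM in DET2 against 6.07, 6.5 and 8.84 CPM in 84K-1, in CZ 33.2, 33 and 33.1 CPM in DET2 against 13.9, 16.6 and 15.4 CPM in 84K-1, and in XY 30.4, 24.8 and 26.2 CPM in DET2 against 9.42, 11 and 11 CPM in 84K-1. Its libraries did not overlap in any tissue, with a mean of 1.19 ± 0.07 (SE, adjusted p = 3.7e-12). Of 67 RNA silencing genes it was the 1 that was higher the same way, and 4 were lower (1 and 1 summed). These are 1.49% and 5.97%, against 6.41% and 5.82% of all genes. *COX6B* (Potri.018G099900), a subunit of mitochondrial cytochrome c oxidase encoded in the nucleus, had in SAM 52, 50.6 and 56.8 CPM in DET2 against 21.4, 20.3 and 22.9 CPM in 84K-1, in CZ 35.3, 34.1 and 33.1 CPM in DET2 against 19.3, 17.1 and 17.6 CPM in 84K-1, and in XY 166, 165 and 167 CPM in DET2 against 70.9, 62.7 and 52.3 CPM in 84K-1. Its mean was 1.22 ± 0.05 (SE, adjusted p = 2.2e-15), again with no overlap in any tissue.

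The other large increases were less even. Potri.008G116500, an NAD(P)-binding Rossmann-fold protein, had 2.07 ± 0.12 on average, with 0.87 in SAM, 3.74 in CZ and 1.60 in XY. *EP3* (Potri.019G093900), a chitinase, had 2.03 ± 0.28, but its level was substantial in SAM only, with 63.2, 62.7 and 70.3 CPM in DET2 and 37.5, 35.3 and 43.6 CPM in 84K-1, and all libraries of CZ and XY were below 2 CPM. *FLA12* (Potri.004G210600) is described with its family. Potri.014G020100, a gibberellin-regulated family protein, had 1.17 ± 0.10. Potri.008G062300, an HSP20-like chaperone, had 0.94 ± 0.04, and the unannotated genes Potri.013G127900 and Potri.008G078000 had 0.85 ± 0.06 and 0.83 ± 0.07. The remaining 4 of these 15 genes belong to ethylene signalling and metal nutrition, and are given with those groups.

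**Figure D2:**
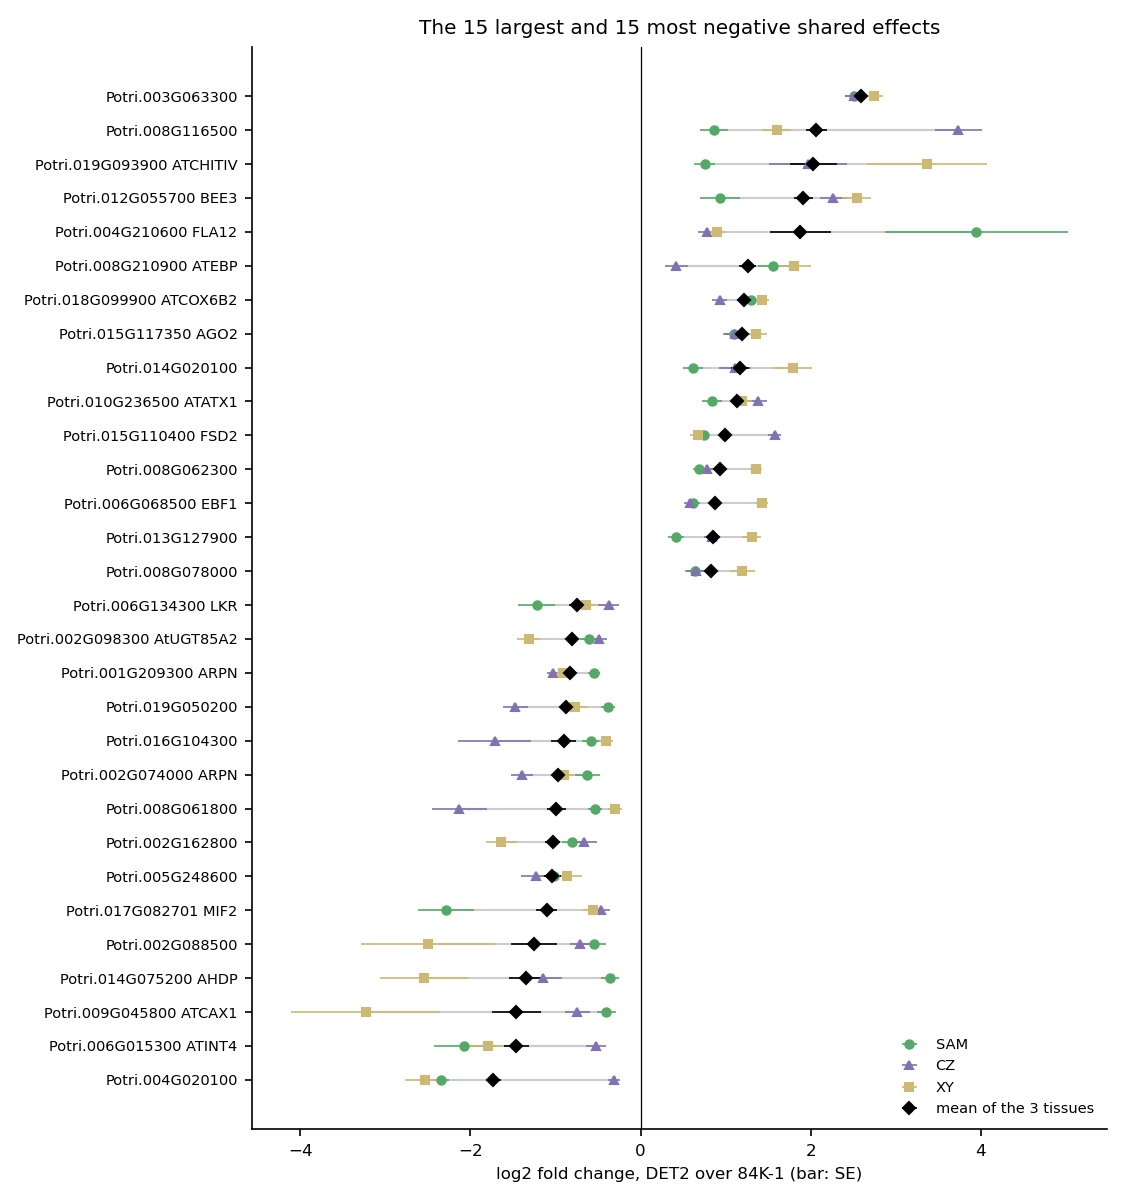
Log2 fold change of DET2 over 84K-1 for the 15 largest and 15 most negative shared effects, 1 gene per line, with colored points for SAM, CZ and XY, a black diamond for their mean and bars for the SE. Potri.003G063300 lies near 2.59 in all tissues, whereas Potri.004G020100 differs between CZ and the other tissues.

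In the lower direction the greatest average change, among genes called in each tissue with a mean of at least 5 CPM, was that of Potri.004G020100, a polyketide cyclase and lipid transport family protein. It had in SAM 5.08, 6.65 and 5.09 CPM in DET2 against 28.1, 27.9 and 30.1 CPM in 84K-1, in CZ 478, 480.0 and 458 CPM in DET2 against 608, 590.1 and 558 CPM in 84K-1, and in XY 1.03, 0.666 and 0.345 CPM in DET2 against 3.51, 4.15 and 3.84 CPM in 84K-1. The DET2 libraries were below the 84K-1 libraries in every tissue, several-fold in SAM and XY but slightly in CZ, where the gene was most abundant. The mean log2 fold change was -1.73 ± 0.08 (SE, adjusted p = 5.0e-14), with -2.35 in SAM, -0.31 in CZ and -2.53 in XY, the clearest difference between tissues of any gene called in each tissue (adjusted p = 8.5e-12). *INT4* (Potri.006G015300), an inositol transporter, had -1.46 ± 0.15, and *CAX1* (Potri.009G045800), a calcium/proton exchanger of the vacuole, -1.46 ± 0.29. The mean of *CAX1* includes a fitted -3.23 in XY, where no library passed 1 CPM, beside -0.40 in SAM and -0.74 in CZ. *ANL2* (Potri.014G075200), a homeodomain factor known for anthocyanin distribution in the Arabidopsis epidermis, had -1.35 ± 0.19.

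Both plantacyanin genes named *ARPN*, small blue copper proteins, were lower, at -0.83 ± 0.04 for Potri.001G209300 and -0.97 ± 0.08 for Potri.002G074000. The more abundant, Potri.001G209300, had in SAM 26.6, 26.8 and 26.8 CPM in DET2 against 38.6, 39.2 and 39.4 CPM in 84K-1, in CZ 36.3, 36.2 and 34.5 CPM in DET2 against 71.6, 76.5 and 70.3 CPM in 84K-1, and in XY 34.8, 32.2 and 34.2 CPM in DET2 against 60.8, 61.4 and 68 CPM in 84K-1. Its libraries did not overlap in any tissue. A pair of lipid-transfer family proteins, Potri.008G061800 and Potri.016G104300, had -0.99 ± 0.11 and -0.90 ± 0.15, both with the greatest change in CZ, where Potri.016G104300 was under 1 CPM in every library. *MIF2* (Potri.017G082701), a mini zinc finger protein, had -1.10 ± 0.12, mainly in SAM (-2.29). The other genes of this group were an EF-hand calcium-binding protein (Potri.002G088500, -1.25 ± 0.27, with -0.55 in SAM, -0.71 in CZ and a fitted -2.50 in XY at counts near 0), the unannotated Potri.005G248600 (-1.04 ± 0.10), an NTF2-family protein (Potri.002G162800, -1.03 ± 0.09), a phosphorylase-superfamily protein (Potri.019G050200, -0.87 ± 0.08), the glucosyltransferase *UGT85A2* (Potri.002G098300, -0.80 ± 0.06) and *LKR/SDH* of lysine breakdown (Potri.006G134300, -0.75 ± 0.09).

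Among genes of microtubules and cell division, those higher in DET2 outnumbered those lower. Of 102 tested kinesins, tubulins and microtubule proteins, 36 were higher and 4 lower the same way, where 6.41% and 5.82% of all genes were, and 11 were higher in each tissue. The list median was 0.15, with 0.10 in SAM, 0.24 in CZ and 0.18 in XY. With replicates 1 and 2 summed the counts were 31 and 2. *TUA6* (Potri.017G081000), an alpha-tubulin, had in SAM 284, 292 and 294 CPM in DET2 against 188, 191 and 192 CPM in 84K-1, in CZ 266, 279 and 271 CPM in DET2 against 187, 182 and 178 CPM in 84K-1, and in XY 48.3, 50.3 and 48 CPM in DET2 against 36.1, 33.5 and 26.7 CPM in 84K-1. The DET2 libraries were above all 84K-1 libraries in each tissue. Its mean was 0.60 ± 0.04 (SE, adjusted p = 2.0e-11), and it was among the most even genes of the contrast, with 0.61 in SAM, 0.58 in CZ and 0.61 in XY. The beta-tubulins *TUB2* (Potri.001G246900) and *TUB8* (Potri.009G040200) had 0.42 ± 0.03 and 0.48 ± 0.05. The armadillo repeat kinesin *ARK2* (Potri.010G227000) had 0.69 ± 0.06, and *KINESIN-12B* (Potri.002G235500), a kinesin of the phragmoplast that builds the new cell wall at division, had 0.56 ± 0.07.

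Of 120 tested cell cycle genes, 28 (23.3%) were higher and 4 (3.33%) lower the same way (22 and 1 with replicates 1 and 2 summed), with a median of 0.08. *CDKB2;1*, a plant-specific kinase of mitotic entry, was higher in both copies, with 0.54 ± 0.06 for Potri.005G257500 and 0.56 ± 0.10 for Potri.002G003400. The first of these had in SAM 94.6, 90.3 and 101 CPM in DET2 against 71.8, 68.9 and 70.0 CPM in 84K-1, in CZ 57.6, 57.9 and 53 CPM in DET2 against 36.7, 36 and 33.1 CPM in 84K-1, and in XY 10.6, 9.05 and 12.4 CPM in DET2 against 8.94, 5.63 and 8.16 CPM in 84K-1. Its libraries did not overlap in any tissue. The B-type cyclins *CYCB3;1* (Potri.010G173200) and *CYCB1;4* (Potri.001G272000) had 0.49 ± 0.05 and 0.58 ± 0.09, and *CDC20.1* (Potri.013G048900), an activator of the anaphase-promoting complex, had 0.63 ± 0.12. Members of *CYCD3;1*, a D-type cyclin of cell cycle entry, did not move together: Potri.009G097800 had 0.65 ± 0.08 and Potri.002G123000 -0.56 ± 0.12.

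Of 53 tested histone genes, 17 (32.1%) were higher and 2 (3.77%) lower the same way (9 and 2 summed), with a median of 0.18 and 0.35 in SAM, 0.07 in CZ and 0.11 in XY. The higher members included *HTA7*, a histone H2A (Potri.005G026500, 0.43 ± 0.06), and an unnamed core histone (Potri.002G028800, 0.57 ± 0.06). Both lower members were *HIS1-3*, a linker histone known in Arabidopsis for induction by drought. *HIS1-3* Potri.005G116600 had in SAM 57.9, 60.8 and 62.2 CPM in DET2 against 73.2, 73.4 and 71.3 CPM in 84K-1, in CZ 327, 329 and 313 CPM in DET2 against 489.5, 479.5 and 468 CPM in 84K-1, and in XY 47.1, 41.8 and 47.3 CPM in DET2 against 98.8, 109 and 99 CPM in 84K-1. The libraries were lower in DET2 throughout, and the difference grew in the order SAM, CZ and XY. Its mean was -0.67 ± 0.03 (SE, adjusted p = 1.3e-13), and that of the other copy, Potri.007G014200, was -0.65 ± 0.04.

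Ribosomal protein genes were higher in number but by little. Of 365 tested, 69 were higher and 3 lower the same way (33 and 2 summed), 0 were called in each tissue, and the median of 0.09 came mainly from SAM, with 0.28 in SAM, -0.04 in CZ and 0.06 in XY. The effect differed between tissues for 132 of them. Of 55 genes of the proteasome and ubiquitin, 12 were higher and 1 lower (5 and 0 summed), with a median of 0.08. Their changes were slight, as in *PAC1* (Potri.006G008800, 0.25 ± 0.05) and *PBB2* (Potri.017G071100, 0.16 ± 0.03), subunits of the proteasome core. For nuclear genes of the photosystems the counts were 16 higher and 1 lower of 79 (10 and 0 summed). *LHCA1* (Potri.010G221100), an antenna protein of photosystem I, had in SAM 198, 184 and 206 CPM in DET2 against 160.1, 155 and 153 CPM in 84K-1, in CZ 101, 96.7 and 92.6 CPM in DET2 against 77.7, 78.5 and 82.3 CPM in 84K-1, and in XY 79.1, 84.4 and 89.8 CPM in DET2 against 70.6, 65.2 and 68.1 CPM in 84K-1. Its libraries did not overlap in any tissue, with a mean of 0.31 ± 0.04 (SE, adjusted p = 6.3e-07). *PSAK* (Potri.006G254200) of the same photosystem had 0.34 ± 0.06.

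**Figure D3:**
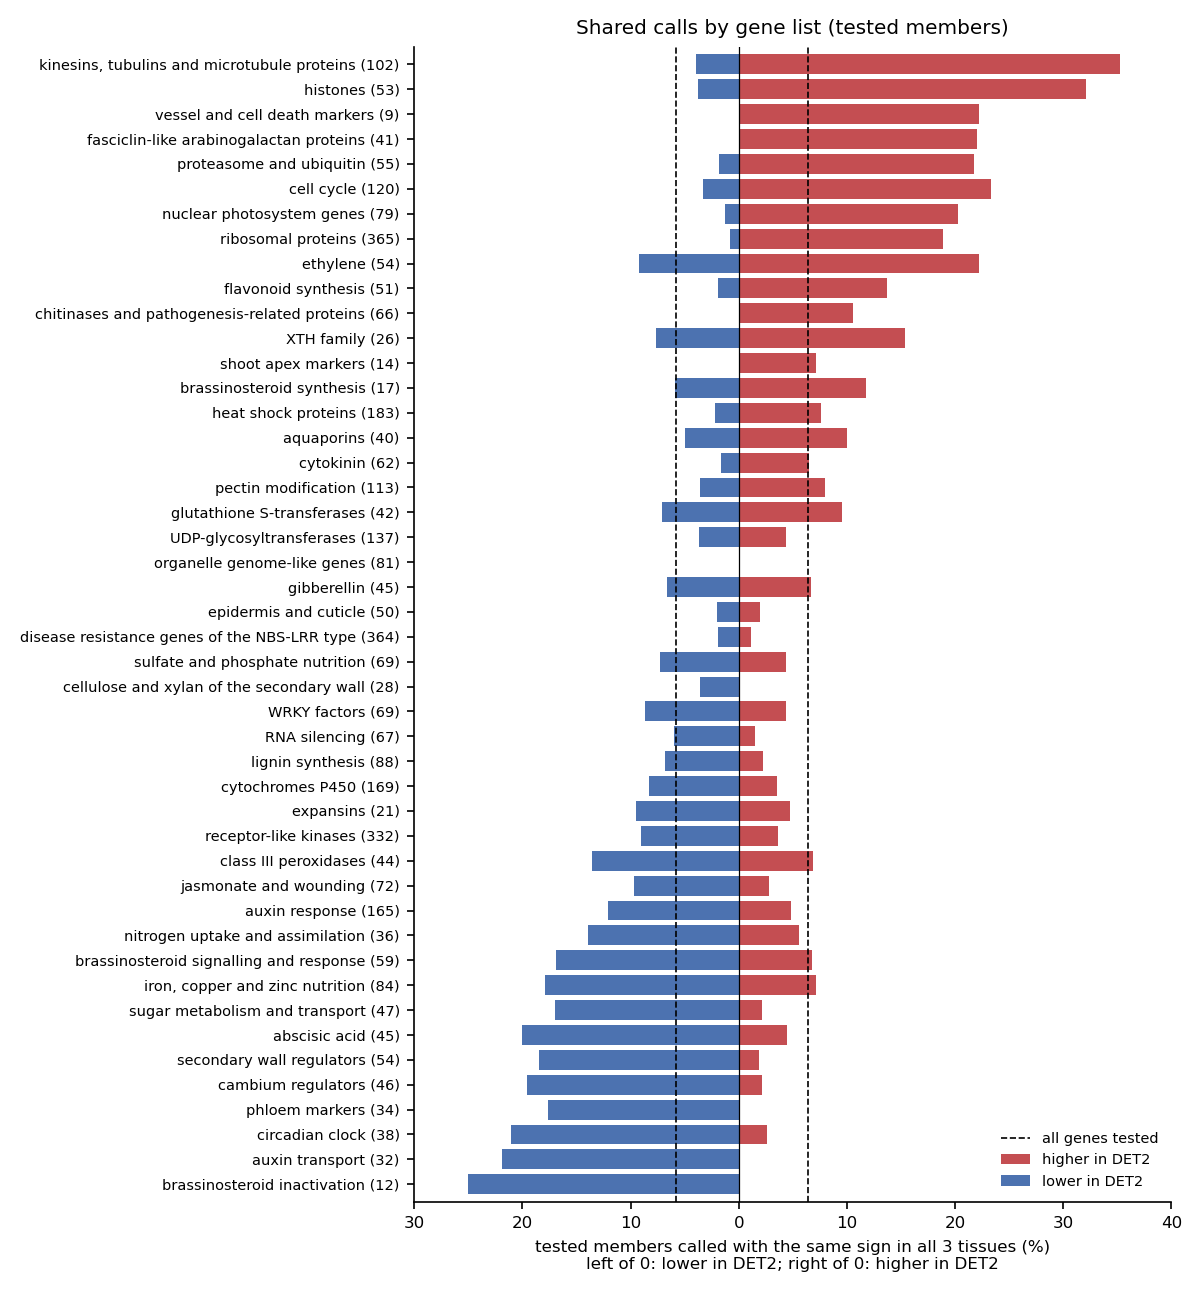
Share of the tested members of each gene list called with the same sign in all 3 tissues, with those higher in DET2 right of 0 and those lower left of 0, in percent, beside dashed lines for all genes tested (6.41% and 5.82%). Microtubule genes reach 35.3% higher and histones 32.1% higher.

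Several regulators of ethylene signalling rose in DET2. Of 54 tested genes, 12 were higher and 5 lower the same way (9 and 4 summed), with a median of 0.13, near 0 in SAM (-0.02 in SAM, 0.15 in CZ and 0.18 in XY). Those higher included receptors, the kinase CTR1 and the F-box proteins EBF1, all of which are known to restrain the ethylene response in Arabidopsis. Of the receptors, *ERS1* (Potri.002G201500) had 0.65 ± 0.06, *ETR2* (Potri.008G164400) 0.56 ± 0.04 and *EIN4* (Potri.013G044100) 0.19 ± 0.04. Of 4 tested *CTR1* genes 3 were higher, at 0.85 ± 0.06 for Potri.010G234700, 0.32 ± 0.05 for Potri.008G025800 and 0.25 ± 0.05 for Potri.006G115800.

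*EBF1* (Potri.006G068500), which targets the transcription factor EIN3 for degradation, had in SAM 31.3, 34.3 and 30.8 CPM in DET2 against 20.3, 19 and 23.5 CPM in 84K-1, in CZ 121, 121 and 112 CPM in DET2 against 78.3, 80.3 and 77.6 CPM in 84K-1, and in XY 158, 172 and 171 CPM in DET2 against 62, 62.6 and 62.3 CPM in 84K-1. No library overlapped between genotypes in any tissue, and the difference was greatest in XY. The mean was 0.88 ± 0.04 (SE, adjusted p = 3.3e-14), with 0.62 in SAM, 0.58 in CZ and 1.42 in XY. A second *EBF1* (Potri.018G130800) was also higher at 0.54 ± 0.04, but another (Potri.018G027700) was lower at -0.32 ± 0.04. *EIN3* (Potri.004G197400) was lower at -0.27 ± 0.03. Of ethylene synthesis genes, *ACO1* (Potri.006G151600), which carries out the last step, had 1.14 ± 0.10 and *ACS10* (Potri.003G117700) -0.48 ± 0.09. *ERF72* (Potri.008G210900), an ethylene-responsive factor, had in SAM 8.43, 10.9 and 8.54 CPM in DET2 against 4.2, 2.67 and 2.6 CPM in 84K-1, in CZ 27.1, 27.7 and 25.3 CPM in DET2 against 19.8, 21.4 and 18.6 CPM in 84K-1, and in XY 9.83, 14.1 and 11.9 CPM in DET2 against 3.99, 2.82 and 3.48 CPM in 84K-1. All DET2 libraries were higher, with a mean of 1.26 ± 0.10 (SE, adjusted p = 5.6e-10) and the least change in CZ (0.42).

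Among genes of iron, copper and zinc nutrition, lower calls outnumbered higher ones. Of 84 tested, 6 were higher and 15 lower the same way (5 and 8 summed), which is 7.14% and 17.9% against 6.41% and 5.82% of all genes, with a median of -0.10, and 3 in each direction were called in each tissue. *FSD2* (Potri.015G110400), an iron superoxide dismutase of plastids, had in SAM 228, 226 and 228 CPM in DET2 against 131, 139 and 137 CPM in 84K-1, in CZ 59.6, 53.2 and 58.6 CPM in DET2 against 19.4, 19.6 and 18.5 CPM in 84K-1, and in XY 15.8, 17.2 and 16 CPM in DET2 against 11.7, 10.1 and 9.12 CPM in 84K-1. Its DET2 libraries were above the 84K-1 libraries in every tissue, most in CZ. The mean was 1.0 ± 0.04 (SE, adjusted p = 8.8e-15). Among the copper/zinc superoxide dismutases, 3 were lower: *CSD1* had -0.46 ± 0.04 for Potri.013G031100 and -0.29 ± 0.03 for Potri.005G044400, and the plastid form *CSD2* (Potri.004G216700) had -0.31 ± 0.05.

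*ATX1* (Potri.010G236500), a copper chaperone of the cytosol, had in SAM 342, 344 and 303 CPM in DET2 against 188, 194 and 171 CPM in 84K-1, in CZ 233, 222 and 185 CPM in DET2 against 92.7, 84 and 70.0 CPM in 84K-1, and in XY 166, 155 and 125 CPM in DET2 against 71.1, 65.2 and 59.9 CPM in 84K-1. All DET2 libraries were higher, and the mean was 1.13 ± 0.07 (SE, adjusted p = 2.9e-09). *COPT5* (Potri.006G219200), a copper transporter, had 0.26 ± 0.05. Copper pumps were among those lower: *PAA2* (Potri.018G047800), which delivers copper to the thylakoid, had -0.47 ± 0.04, and *HMA5* in 2 of 4 tested copies had -0.41 ± 0.06 for Potri.003G125700 and -0.50 ± 0.09 for Potri.001G105800. The ferritins *FER2* (Potri.010G184500) and *FER1* (Potri.016G124900), which store iron, had 0.25 ± 0.03 and 0.54 ± 0.10. The metal transporters *OPT3* (Potri.006G006000) and *NRAMP3* (Potri.007G050600) had -0.35 ± 0.04 and -0.31 ± 0.04, and the ferric reductase *FRO8* (Potri.015G083200) had -0.52 ± 0.08.

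Of the wall proteins, fasciclin-like arabinogalactan proteins had the highest median of the 46 lists. Of 41 tested, 9 were higher and 0 lower the same way (7 and 0 summed), with a median of 0.40 and 0.16 in SAM, 0.25 in CZ and 0.79 in XY. Held at the floor of 3 counts per library, the 11 members with a group at 0 moved this median to 0.36. *FLA17* (Potri.010G244900) had in SAM 51.6, 53.4 and 48.9 CPM in DET2 against 33.4, 30.6 and 29.8 CPM in 84K-1, in CZ 57.7, 62 and 61.7 CPM in DET2 against 47.1, 47.4 and 51.3 CPM in 84K-1, and in XY 1183, 1349 and 1228 CPM in DET2 against 629, 647 and 734 CPM in 84K-1. Its libraries did not overlap in any tissue, with a mean of 0.64 ± 0.04 (SE, adjusted p = 3.7e-12). The adjacent *UBP12* (Potri.010G245100), a ubiquitin protease 3894 bp away, was also called in each tissue, at 0.48 ± 0.04. *FLA12* (Potri.004G210600), of the stem-specific branch known in wood, was abundant in XY only, with 1175, 1213 and 1435 CPM in DET2 and 681, 651 and 709.8 CPM in 84K-1. In SAM it had 0 counts in all 84K-1 libraries and at most 0.364 CPM in DET2, so its mean of 1.88 includes a fitted SAM value at counts near 0 and is no measure of size.

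Xyloglucan endotransglucosylase/hydrolases, which cut and rejoin xyloglucan in growing walls, were higher for 4 and lower for 2 of 26 tested members (4 and 2 summed). *XTH16* (Potri.002G236200) had in SAM 72.5, 80.0 and 96.6 CPM in DET2 against 63.7, 59.9 and 70.6 CPM in 84K-1, in CZ 155, 160.2 and 189.9 CPM in DET2 against 125, 128 and 136 CPM in 84K-1, and in XY 63, 68.1 and 76.7 CPM in DET2 against 43, 39.9 and 39.6 CPM in 84K-1. All DET2 libraries were above all 84K-1 libraries, narrowly in SAM. Its mean was 0.50 ± 0.06 (SE, adjusted p = 5.3e-07). The second *XTH16* (Potri.014G146100) had 0.56 ± 0.10 and *XTH23* (Potri.013G005700) 1.01 ± 0.12. *XTH28* (Potri.010G102300) was lower at -0.23 ± 0.05. Of 21 expansins, which loosen walls, 1 was higher and 2 lower (1 and 1 summed). *EXPB3* (Potri.019G101900) had in SAM 141, 151 and 133 CPM in DET2 against 226, 239.6 and 232 CPM in 84K-1, in CZ 34.4, 31.3 and 30.3 CPM in DET2 against 35.5, 40.4 and 41.8 CPM in 84K-1, and in XY 75.3, 76 and 79.5 CPM in DET2 against 141, 138 and 146 CPM in 84K-1. All DET2 libraries were lower, with a mean of -0.63 ± 0.04 (SE, adjusted p = 7.0e-12).

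Among regulators of secondary walls, lower calls outnumbered higher ones. Of 54 tested, 1 was higher and 10 lower the same way (0 and 6 summed), with a median of -0.11 that lay mainly in CZ (-0.01 in SAM, -0.30 in CZ and 0.04 in XY). *MYB4* (Potri.004G174400), a repressor of phenylpropanoid genes, had in SAM 10.3, 9.89 and 10.7 CPM in DET2 against 13.6, 11.4 and 14.6 CPM in 84K-1, in CZ 27.9, 26.6 and 28.1 CPM in DET2 against 39.4, 40.6 and 39.5 CPM in 84K-1, and in XY 58.6, 63.8 and 67.1 CPM in DET2 against 78.9, 80.2 and 68.9 CPM in 84K-1. Its libraries did not overlap, and the mean was -0.39 ± 0.05 (SE, adjusted p = 8.2e-06). *MYB42* (Potri.012G127700), a factor of lignin deposition, had -0.44 ± 0.07, and *VNI2* (Potri.003G166500), a NAC protein that represses vessel formation, -0.21 ± 0.04. The 1 higher member was *VND1* (Potri.007G014400), a vessel master regulator, at 0.23 ± 0.07, a call lost in 5 of 18 fits that each left out 1 library (adjusted p up to 0.15). Of 88 lignin synthesis genes, 2 (2.27%) were higher and 6 (6.82%) lower (2 and 3 summed), the latter near the 5.82% of all genes. *PAL1* (Potri.008G038200), the entry enzyme of phenylpropanoid synthesis, had -0.38 ± 0.04, and *C4H* (Potri.018G146100), which acts next, was one of those higher at 0.61 ± 0.13. Of 28 genes of secondary wall cellulose and xylan, 0 were higher and 1 lower (0 and 1 summed), and their medians were 0.08 in SAM, -0.38 in CZ and 0.21 in XY. The summed xylem markers went in opposite directions as well, with 781 to 832 CPM in DET2 and 1082 to 1162 CPM in 84K-1 libraries of CZ but 19511 to 20269.6 CPM in DET2 and 17975 to 18505 CPM in 84K-1 libraries of XY. The part of these levels in the results was not tested.

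Among auxin genes as well, lower calls outnumbered higher ones. Of 32 auxin transport genes, 0 were higher and 7 (21.9%) lower the same way (0 and 4 summed). The list median was -0.13 (-0.06 with the members that had a group at 0 held at the floor), and per tissue -0.16 in SAM, 0.01 in CZ and -0.06 in XY. *PIN3* (Potri.010G112800), an efflux carrier that redirects auxin sideways, had in SAM 24.8, 26.5 and 21.7 CPM in DET2 against 34.2, 37.4 and 28.7 CPM in 84K-1, in CZ 37.6, 43.5 and 46.5 CPM in DET2 against 54.2, 59.8 and 56.8 CPM in 84K-1, and in XY 24.4, 24.9 and 28.8 CPM in DET2 against 36.4, 34.2 and 41.7 CPM in 84K-1. The DET2 libraries were below the 84K-1 libraries in each tissue, with a mean of -0.47 ± 0.06 (SE, adjusted p = 4.1e-06). A second *PIN3* (Potri.008G129400) had -0.32 ± 0.05. The exporter *ABCB19* (Potri.017G081100) had -0.29 ± 0.04 and the importer *AUX1* (Potri.016G113600) -0.19 ± 0.05. Of 165 auxin response genes, 8 (4.85%) were higher and 20 (12.1%) lower (4 and 13 summed). Auxin response factors were among those lower, including *ARF5* (Potri.005G236700, -0.38 ± 0.06), *ARF9* (Potri.001G088600, -0.23 ± 0.04) and *ARF2* (Potri.012G106100, -0.20 ± 0.04). The growth promoter *ARGOS* (Potri.007G146401) was higher at 1.07 ± 0.08, with almost no difference in SAM (0.07).

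Of 45 abscisic acid genes, 2 (4.44%) were higher and 9 (20%) lower the same way (1 and 5 summed), with a median of -0.11. *HAI2* (Potri.009G037300), a protein phosphatase strongly induced by abscisic acid in Arabidopsis, had in SAM 34.2, 35.9 and 34 CPM in DET2 against 44.8, 46.4 and 46.9 CPM in 84K-1, in CZ 29.3, 30.4 and 35.8 CPM in DET2 against 48.7, 51.8 and 50.3 CPM in 84K-1, and in XY 9.83, 10.8 and 8.84 CPM in DET2 against 12.5, 15.1 and 12.2 CPM in 84K-1. All DET2 libraries were lower, and the mean was -0.50 ± 0.06 (SE, adjusted p = 4.8e-07). The transcription factor *ABF3* (Potri.009G101166) had -0.43 ± 0.06, and *NCED3* (Potri.011G112400), the rate-limiting enzyme of abscisic acid synthesis, -0.23 ± 0.07. The kinase *OST1* went both ways, with 0.32 ± 0.05 for Potri.003G084100 and -0.13 ± 0.04 for Potri.009G106900, whose call was lost in 4 of 18 fits that each left out 1 library (adjusted p up to 0.06).

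Of 46 cambium regulators, 1 (2.17%) was higher and 9 (19.6%) lower the same way (1 and 5 summed), with a median of -0.13. The receptor kinase *PXY* (Potri.001G126100), which keeps cambium cells dividing, had -0.16 ± 0.03. It had -0.29 in SAM, -0.08 in CZ and -0.10 in XY, and was called in SAM only. A second *PXY* (Potri.003G107600) had means, scaled to library totals, of 765 CPM in DET2 and 752 CPM in 84K-1 libraries of CZ. Its means were 166 and 201 CPM in SAM and 483 and 519 CPM in XY. *CLE41* (Potri.002G241300), a peptide ligand of PXY, had -0.29 ± 0.09. *WOX4* (Potri.014G025300), a homeobox gene that acts downstream of PXY, was the 1 higher member at 0.19 ± 0.04. A second *WOX4* (Potri.002G124100) had lower means in DET2 in SAM (23.2 against 29.7 CPM) and CZ (47.4 against 52.6 CPM). In XY its mean was higher (26.2 against 22.6 CPM), all scaled to library totals. Lower members also included 3 of 6 tested *KNAT6* genes (-0.22 for Potri.012G087100, -0.29 for Potri.013G008600 and -0.21 for Potri.010G043500) and the pair of *REV* genes (-0.20 for Potri.009G014500 and -0.14 for Potri.004G211300), homeobox factors of meristems and vascular patterning. The call of Potri.004G211300 was lost in 12 of 18 fits that each left out 1 library (adjusted p up to 0.097), and that of *CLE41* in 3 of 18 fits that each left out 1 library (adjusted p up to 0.092). Summed cambium markers were 1744 to 1864 CPM in DET2 and 1938 to 2072 CPM in 84K-1 libraries of XY, while their ranges overlapped in CZ. Of 16 cambium markers, 4 were higher and 2 lower the same way. Their part in these counts was not tested.

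Of 34 phloem genes, 0 were higher and 6 (17.6%) lower the same way (0 and 3 summed), with a median of -0.20. *PP2-A14* (Potri.015G138600) and *PP2-A10* (Potri.015G120200), phloem lectin family proteins, had -0.38 ± 0.05 and -0.50 ± 0.08. *SUC2* (Potri.013G115200), the sucrose loader of the phloem, had 109.8, 109 and 109 CPM in DET2 and 223, 210.0 and 217 CPM in 84K-1 libraries of CZ, and was near 0 elsewhere. Its CZ log2 difference was -0.99. A second, more abundant *SUC2* (Potri.019G085800) went the other way in CZ, with means of 1038.5 CPM in DET2 and 909 CPM in 84K-1, scaled to library totals. In the other tissues its means were lower in DET2, with 12.6 against 19.9 CPM in SAM and 752 against 883 CPM in XY. The summed phloem markers were 738 to 784 CPM in DET2 and 873 to 924 CPM in 84K-1 libraries of XY, yet 1621 to 1668 CPM in DET2 and 1558 to 1588 CPM in 84K-1 libraries of CZ. Whether a change in phloem cells took part was not tested. Of 47 sugar genes, 1 (2.13%) was higher and 8 (17%) lower (1 and 4 summed). The sucrose synthase *SUS3* (Potri.002G202300) had -0.41 ± 0.04 and the hexose importer *STP13* (Potri.008G151100) -0.55 ± 0.07, while *UGP2* (Potri.017G144700), which makes UDP-glucose, was higher mainly in XY at 0.41 ± 0.03.

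**Figure D4:**
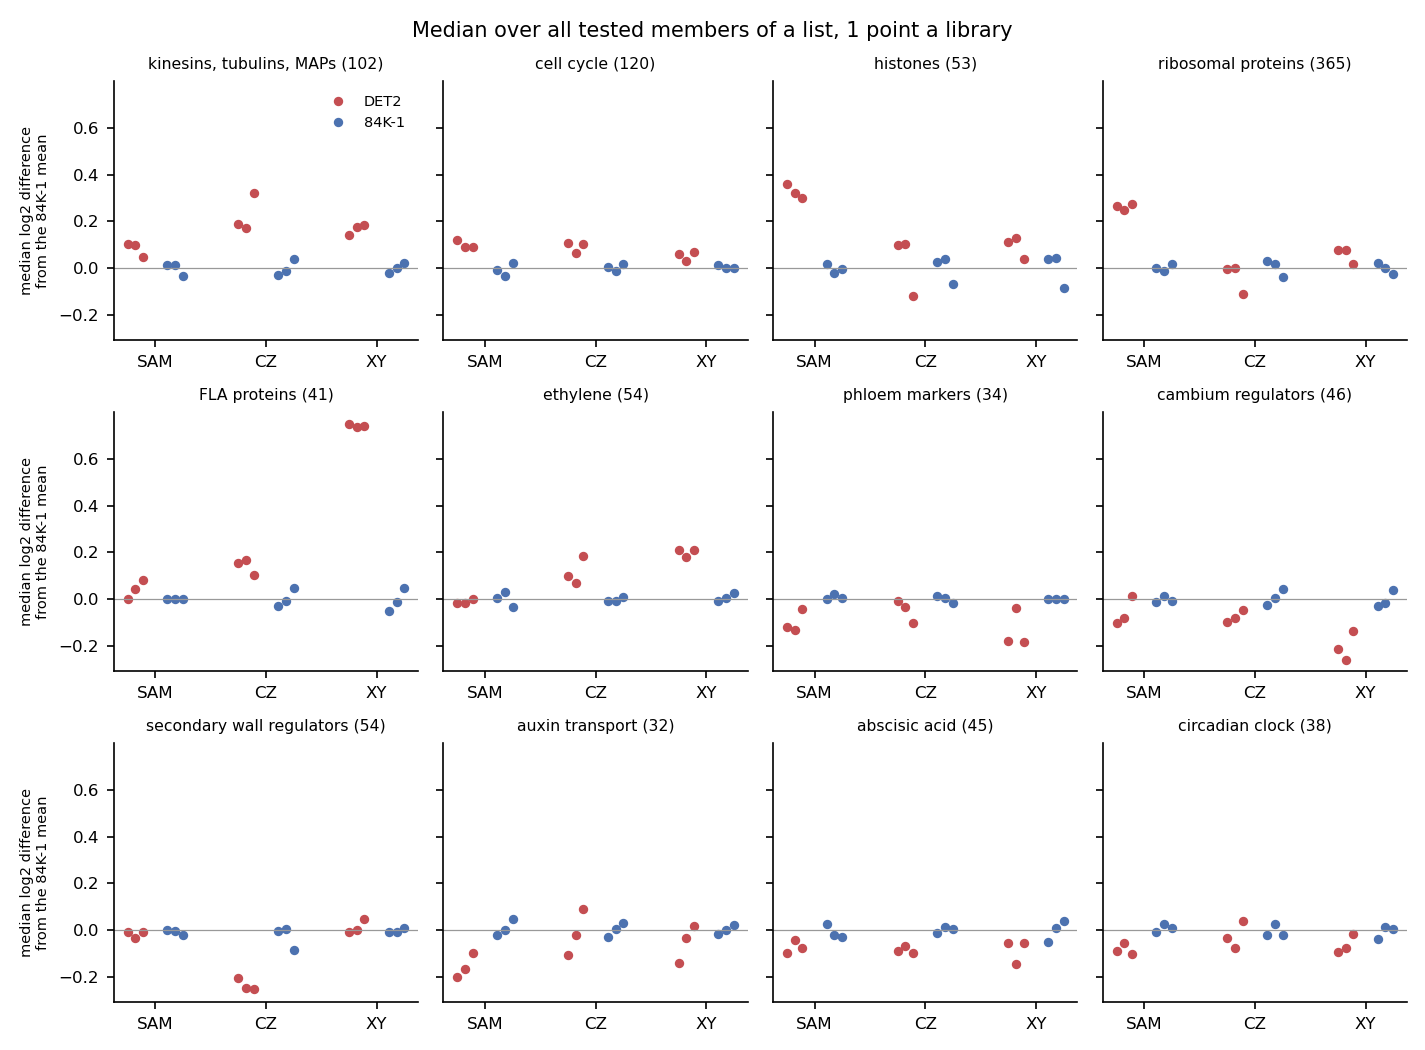
Median over all tested members of 12 lists of the log2 difference of each library from the 84K-1 mean of its tissue, with tissues on the horizontal axis, DET2 left of 84K-1 and 1 point per library. For kinesins, tubulins and microtubule proteins all DET2 libraries lie above all 84K-1 libraries in every tissue, whereas for ribosomal proteins the DET2 libraries stand apart in SAM (0.25 to 0.28) and not in CZ.

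Of 38 clock genes, 1 (2.63%) was higher and 8 (21.1%) lower the same way (1 and 5 summed). *FKF1* (Potri.008G135200), a blue-light receptor of the clock, was lower in each tissue with -0.33 ± 0.04, *ELF3* (Potri.003G045000) had -0.42 ± 0.08, and *LHY* (Potri.002G180800), a morning-phased clock factor, was the 1 higher at 0.65 ± 0.16. Time of harvest is not in the labels. Of 51 flavonoid genes, 7 were higher and 1 lower (6 and 1 summed). *UGT78D2* (Potri.009G133300), which attaches glucose to flavonoids, had 0.77 ± 0.05 and *ANS* (Potri.001G113100), of anthocyanin synthesis, 0.48 ± 0.06. In the list of chitinases and pathogenesis-related proteins, 7 of 66 genes rose the same way and 0 fell (5 and 0 summed). *PR4* (Potri.013G041700) had 1.42 ± 0.24. Of 332 receptor-like kinases, 12 were higher and 30 lower (9 and 15 summed), and of 364 disease resistance genes of the NBS-LRR type, 4 were higher and 7 lower (0 and 3 summed). Of 5 tested *ARR9* genes, type-A response regulators induced by cytokinin, 2 were higher the same way, at 0.44 ± 0.05 for Potri.006G041100 and 0.55 ± 0.07 for Potri.001G027000, and 4 of 62 cytokinin genes were higher and 1 lower (3 and 0 summed), a share of 6.45% higher against 6.41% of all genes.

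Further lists are given by the number of genes that moved the same way, to be read against 6.41% higher and 5.82% lower among all genes. Summed counts are to be read against 3.18% and 2.75%. Among hormone genes there were 3 higher and 3 lower of 45 (3 and 2 summed) for gibberellin and 2 higher and 7 lower of 72 (1 and 6 summed) for jasmonate and wounding. For cell walls and surfaces the counts were 9 higher and 4 lower of 113 (6 and 3 summed) for pectin modification, 3 higher and 6 lower of 44 (1 and 3 summed) for class III peroxidases and 1 higher and 1 lower of 50 (1 and 0 summed) for epidermis and cuticle. WRKY factors had 3 higher and 6 lower of 69 (2 and 3 summed), heat shock proteins 14 higher and 4 lower of 183 (10 and 2 summed) and glutathione S-transferases 4 higher and 3 lower of 42 (1 and 2 summed). Cytochromes P450 had 6 higher and 14 lower of 169 (4 and 7 summed) and UDP-glycosyltransferases 6 higher and 5 lower of 137 (2 and 4 summed). For transport and nutrition there were 2 higher and 5 lower of 36 (1 and 4 summed) for nitrogen, 3 higher and 5 lower of 69 (2 and 3 summed) for sulfate and phosphate and 4 higher and 2 lower of 40 (4 and 1 summed) for aquaporins.

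Some genes changed almost equally in all tissues. Besides *TUA6*, *ARK2* and *ERS1*, the most even genes called in each tissue with a log2 change of at least 0.58 were the unannotated Potri.002G262800 (0.64 ± 0.08) and the WD40-repeat protein Potri.003G151400 (-0.74 ± 0.07), the 1 lower gene among these 5. The least even, after Potri.004G020100, *HIS1-3*, *FSD2* and *EBF1*, was the beta-amylase *BAM5* (Potri.017G040800), at -0.69 ± 0.04 with -0.52 in SAM, -0.38 in CZ and -1.16 in XY. Potri.001G440700, a berberine-type FAD-binding oxidase, had 0 counts in all 9 84K-1 libraries and 7 to 20 counts in every DET2 library. Against a floor of 3 counts per library it was at least 4.42-fold higher in DET2. Of neighbouring genes called in each tissue within 20 kb of each other, 2 pairs were found: *FLA17* with *UBP12*, and a pair on chromosome 9 between positions 6817955 and 6824477 of the *P. trichocarpa* genome used by the authors. That pair, Potri.009G068900 (*CPN10*, a chaperonin) and Potri.009G069000, had mean log2 fold changes of -3.28 ± 0.38 and -2.73 ± 0.29, at low levels of 1.27 and 1.4 CPM.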

How the data were processed

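RNA-seq libraries of SAM, CZ and XY were made from DET2 and 84K-1 plants, with 3 replicates per group. Per the study's methods and the submitters' processing notes, the authors used HISAT2 2.0.4 to align reads to *P. trichocarpa*, a related poplar rather than the sequenced hybrid, and assembled transcripts with StringTie 1.3.0. They deposited gene counts and FPKM values, with gene symbols taken from Arabidopsis homologs. The deposited counts were not normalized. The FPKM values, which per the study's methods were calculated after TMM normalization by the authors, were used only in an alternative.

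Genes were kept by filterByExpr (25726 of 42950), scaled by TMM and fitted with edgeR 4.0.16 (robust quasi-likelihood, 1 coefficient for each of 6 groups, 12 residual degrees of freedom, R 4.3.3). SEs were derived from the F statistics, and p-values were adjusted by Benjamini-Hochberg over all genes tested. The tests were also run on counts simulated as independent libraries. That simulation held no near-duplicate replicates and no shared trees, so it cannot tell how these affect the p-values. limma 3.58.1 and DESeq2 1.42.0 served as alternatives.

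Genes were named as the 15 largest and 15 most negative averages among genes called in each tissue with a mean of at least 5 CPM, up to 4 genes of each of 46 lists with the smallest adjusted p among those that moved the same way, the 5 most even (log2 change of at least 0.58) and the 5 least even. Further list members were named after their values were seen. Not all genes so named are described in the report. The members and lists were chosen with earlier results of these data known. Where a symbol also belonged to an unrelated family, those genes were taken out of the list by their description, after values were seen. Correlations of same-numbered deviations between DET2 and 84K-1 libraries were weak, at 0.0148 to 0.116, with 1 pair above 0.1. All were positive, and in SAM, CZ and XY 4, 6 and 6 of 6 libraries correlated best with their own number. Between tissues of 84K-1, same-numbered correlations were 0.0488 to 0.112 for SAM with CZ and 0.0183 to 0.0493 for SAM with XY. There 6 of 6 libraries correlated best with their own number in both, but 2 of 6 for CZ with XY. Between tissues of DET2 the counts were 2, 2 and 3 of 6. Whether tissues shared trees was not tested. The main fit had no replicate term. No reference genome was used here, and promoter motifs were not analysed.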

Additional observations from a re-analysis of the deposited data

Results flagged for a closer look

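The effect of genotype differed between SAM, CZ and XY for 5113 of the genes tested (edgeR test of equal effects in the 3 tissues, adjusted p of at most 0.05). Organelle genome-like genes went opposite ways, with a median log2 fold change of 1.76 in CZ, against -0.92 in SAM and -4.89 in XY. The cause of this difference was not tested. Genes named in the report whose effects differed between tissues are given, smallest first, with the adjusted p of that difference. The clearest were Potri.004G020100 with 8.55e-12, *UGP2* (Potri.017G144700) with 3.86e-11, *HIS1-3* (Potri.005G116600) with 8.56e-08, *FSD2* (Potri.015G110400) with 5.46e-07, *EBF1* (Potri.006G068500) with 6.12e-07, *ARGOS* (Potri.007G146401) with 1.96e-06 and *BAM5* (Potri.017G040800) with 2.11e-06. Next came Potri.008G116500 with 3.91e-06, *CTR1* (Potri.010G234700) with 1.66e-05, *CSD1* (Potri.005G044400) with 2.45e-05, Potri.008G062300 with 3.69e-05, *ETR2* (Potri.008G164400) with 4.29e-05, *ACO1* (Potri.006G151600) with 6.53e-05 and *ERF72* (Potri.008G210900) with 1.05e-04. These were followed by *EBF1* (Potri.018G027700) with 1.20e-04, *FLA17* (Potri.010G244900) with 1.63e-04, *SUS3* (Potri.002G202300) with 2.55e-04, *EXPB3* (Potri.019G101900) with 3.16e-04, Potri.013G127900 with 3.30e-04, *EXL5* (Potri.009G167800) with 3.73e-04 and Potri.019G050200 with 5.25e-04. A further set held *MYB42* (Potri.012G127700) with 6.86e-04, *PAL1* (Potri.008G038200) with 8.12e-04, *OST1* (Potri.003G084100) with 8.50e-04, *HMA5* (Potri.003G125700) with 0.00108, *INT4* (Potri.006G015300) with 0.00119, *BEE3* (Potri.012G055700) with 0.00122 and *STP13* (Potri.008G151100) with 0.00131. Larger values belonged to Potri.008G061800 with 0.0017, *UGT78D2* (Potri.009G133300) with 0.00176, *UGT85A2* (Potri.002G098300) with 0.00187, *CYCB3;1* (Potri.010G173200) with 0.00211, *XTH28* (Potri.010G102300) with 0.00279, *ANL2* (Potri.014G075200) with 0.00293 and *ARPN* (Potri.001G209300) with 0.00326. Close to these stood *MIF2* (Potri.017G082701) with 0.00371, *FRO8* (Potri.015G083200) with 0.00435, Potri.014G020100 with 0.00491, *PR4* (Potri.013G041700) with 0.0064, Potri.002G162800 with 0.00749, *CSD2* (Potri.004G216700) with 0.00982 and *BEE3* (Potri.015G046300) with 0.011. Higher p-values still belonged to *EP3* (Potri.019G093900) with 0.0112, *CTR1* (Potri.006G115800) with 0.0121, *SUC2* (Potri.013G115200) with 0.0124, *COX6B* (Potri.018G099900) with 0.0134, *ARF9* (Potri.001G088600) with 0.0137, *ARPN* (Potri.002G074000) with 0.015 and *CSD1* (Potri.013G031100) with 0.015. Beyond these lay *PP2-A10* (Potri.015G120200) with 0.0156, Potri.002G028800 with 0.0184, *C4H* (Potri.018G146100) with 0.0184, *KINESIN-12B* (Potri.002G235500) with 0.0208, *EBF1* (Potri.018G130800) with 0.0224, *ARR9* (Potri.001G027000) with 0.023 and *PAA2* (Potri.018G047800) with 0.0236. Near the end were *HMA5* (Potri.001G105800) with 0.0277, *ABCB19* (Potri.017G081100) with 0.0301, *BEE3* (Potri.004G099400) with 0.0324, *ROT3* (Potri.007G018400) with 0.0324, *CAX1* (Potri.009G045800) with 0.0343, *XTH23* (Potri.013G005700) with 0.0344 and *LKR* (Potri.006G134300) with 0.0451. The last were *WOX4* (Potri.014G025300) with 0.0478 and *DET2* (Potri.016G110600) with 0.0484.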

How the results depend on the processing

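No gene named in the report changed direction under any alternative. The counts of genes that moved the same way stayed within 1.5 times of 1649 higher and 1497 lower under DESeq2 size factors, TMM without *DET2* and organelle-like genes, both expression filters, limma voom, DESeq2 and FPKM, and when single libraries were left out (1427 to 1754 higher, 1326 to 1569 lower). Leaving out a library gave 2053 to 2440 higher and 2063 to 2519 lower in the average, 73 to 116 and 85 to 121 in each tissue, and 624 to 744 without overlap. With replicates 1 and 2 of each group summed, chosen after seeing the data, 1072 and 1052 genes changed in the average, 848 and 734 the same way, 32 and 25 in each tissue, 1262 did not overlap, with fewer libraries to separate, and 1713 differed between tissues. Averages over pairs of tissues gave, without SAM, 369 higher and 365 lower in each tissue and 1784 not overlapping; without CZ, 372, 308 and 2048; without XY, 231, 241 and 1619, with 1435 and 1407 in the average. The replicate block gave 1826 higher and 1677 lower the same way and 142 and 163 in each tissue; in SAM, CZ and XY, 4, 6 and 6 of 6 libraries correlated best with their own number. A term for replicate 3 gave 174 lower in each tissue. An additive model gave 1551 higher and 1205 lower. With values averaged over tissues for each genotype and replicate number, limma gave 1307 and 1307 in the average. Of the 145 genes named with a call, 13 lost their call with replicates 1 and 2 summed, namely *BZR1* (Potri.002G133700), *BRL1*, *BRL2*, *CLE41*, *REV* (Potri.004G211300), *VND1*, *OST1* (Potri.009G106900), *KNAT6* (Potri.010G043500), *NCED3*, *EIN4*, *BRH1*, *BEE3* (Potri.015G046300) and *AUX1* (Potri.016G113600). Of the same 145 genes, 12 lost their call without SAM, including *DWF7*, *BAS1* and *PXY*, 11 without CZ, including *DWF7* and *ROT3*, and 23 without XY, including *EXL5*, *C4H*, *SUC2*, *UGP2*, *WOX4* and *BRI1* (Potri.007G078100). Where calls were lost, the cause was not tested. At this depth 46 of the 1649 higher and 56 of the 1497 lower genes had a group at 0 counts, where the fitted size is no bound.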
